A study of Homo sapiens with 35 samples.

Results

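The genes described here are 9 that set how much retinoic acid a cell holds and where it goes: the retinol transporter STRA6, the retinyl ester synthase LRAT, the retinal reductase DHRS3, the retinal dehydrogenases ALDH1A2 and ALDH1A3, the retinoic acid carriers CRABP1 and CRABP2, and the retinoic acid hydroxylases CYP26A1 and CYP26B1. They were chosen by name, with earlier results of these data known. A gene was followed where a probe set was annotated to it and to no other gene, which held for 8 of the 9 genes and for 10 of the 22930 probe sets; CRABP1 was not analysed here. ALDH1A2 and ALDH1A3 had 2 probe sets each and were represented by the brighter of them. The arrays came from BE(2)-C cells, a single human neuroblastoma line with extra copies of MYCN, in a study that looked for a differentiation signature to use in a screen. Cultures received the vehicle DMSO, all-trans retinoic acid (ATRA) at 5 uM, the histone deacetylase inhibitor valproic acid (VPA) at 1 mM, or ATRA and VPA together at these doses, each for 6, 24 or 72 h. There were 3 arrays in every group except DMSO at 72 h, which had 2, so that 35 arrays fell into 12 groups. The labels speak of triplicates and not of separate cultures, so p-values measure the spread between these samples, which may be technical.

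Retinol enters many cells through STRA6 and is stored as retinyl esters made by LRAT. It is oxidised to retinal, which DHRS3 can turn back to retinol, and retinal dehydrogenases make retinoic acid from it in a step that is not reversed. CRABP2 carries retinoic acid to its nuclear receptors, which bind DNA as pairs on 2 copies of a short hexamer, and CYP26 enzymes hydroxylate retinoic acid for removal. CYP26A1, CRABP2, DHRS3 and STRA6 are textbook genes that respond to retinoic acid, and ATRA is used in the treatment of neuroblastoma.

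The windows around the annotated starts of the 3 most induced genes are shown first, because a CYP26A1 window was the only one of the set that held such hexamers as a direct repeat with 1, 2 or 5 bases between them. They are RefSeq sequence of build GRCh38.p14, from 250 bases before to 50 bases from the start on, written in the direction of the gene. Capitals mark each hexamer, which is AGGTCA or its variant AGTTCA, or else GGGTCA or its variant GGTTCA, on either strand. The CYP26A1 window is chr10:93073643-93073942 on the plus strand, the CRABP2 window chr1:156705735-156706034 on the minus strand and the CYP26B1 window chr2:72147813-72148112 on the minus strand.
CYP26A1: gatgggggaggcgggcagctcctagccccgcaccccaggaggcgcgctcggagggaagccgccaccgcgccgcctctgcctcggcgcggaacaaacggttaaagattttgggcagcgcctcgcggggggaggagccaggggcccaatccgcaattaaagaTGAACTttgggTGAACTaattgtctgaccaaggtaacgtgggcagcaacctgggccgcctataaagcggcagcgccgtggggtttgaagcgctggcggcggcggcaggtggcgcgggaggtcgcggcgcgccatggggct
CRABP2: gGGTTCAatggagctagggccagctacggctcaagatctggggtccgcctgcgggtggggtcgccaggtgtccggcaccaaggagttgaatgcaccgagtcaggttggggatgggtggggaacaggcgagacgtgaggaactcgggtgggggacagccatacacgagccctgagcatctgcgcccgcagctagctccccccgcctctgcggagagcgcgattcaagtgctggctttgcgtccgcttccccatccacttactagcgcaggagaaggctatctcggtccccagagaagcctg
CYP26B1: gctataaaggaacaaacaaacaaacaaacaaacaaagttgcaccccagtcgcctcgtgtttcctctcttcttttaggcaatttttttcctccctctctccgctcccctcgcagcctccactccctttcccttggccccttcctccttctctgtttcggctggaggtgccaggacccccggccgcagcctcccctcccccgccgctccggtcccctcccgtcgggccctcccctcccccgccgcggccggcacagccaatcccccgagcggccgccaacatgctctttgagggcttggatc

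In the CYP26A1 window 2 copies of AGTTCA, read on the minus strand, formed a direct repeat with 5 bases between them at chr10:93073803-93073819. It lay at -90 to -74 with the start base counted as 0. Such a repeat was found in 0.0883% of the 35116 promoter windows searched, and a repeat with 1, 2 or 5 bases between the hexamers in 0.259%. The other CYP26A1 window of the annotation, at chr10:93073225-93073524, held no hexamer. The CRABP2 window held 1 hexamer, 38.6% of all windows held at least 1, and the CYP26B1 window held 0. Hexamers outside such a repeat stood in 2 of the 3 DHRS3 windows (1 in each), 2 of the 5 STRA6 windows (3 hexamers and 1 hexamer) and 1 of the 2 ALDH1A2 windows, and in none of those of LRAT and ALDH1A3. These are matches of letters in short windows, and no binding was measured.

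Values are intensities on a linear scale after RMA, the authors' summary of the probes of a probe set. The lower quartile of an array, which serves here as a mark of dim signal because no detection calls come with the values, was 20.8 to 23.6. Median intensity per array was 53.15 to 58.89 except for DMSO 24 h replicate 1, at 43.63, whose residual SD of 0.234 also stood above the 0.083 to 0.172 of the others. Of 8 measured noradrenergic markers of the line, 6 had group means of 587.1 or more in every group (MYCN 4939 to 7357, PHOX2A 1381 to 2950), TH lay at 97.83 to 261.5 and HAND2 at 25.32 to 40.9, near the lower quartile. The 3'/5' log2 ratio of the control transcripts, a sign of RNA and labelling quality, was 0.272 ± 0.091 (SD, n = 3) with DMSO and 0.202 with ATRA at 6 h, 1.052 ± 0.263 and 0.887 at 24 h, and 1.06 ± 0.168 (n = 2) and 1.823 ± 0.173 at 72 h. With VPA this ratio was 0.444, 1.598 ± 0.632 and 1.091 at 6, 24 and 72 h. With both agents it was 0.386 ± 0.455, 0.971 and 1.363. VPA 24 h replicate 2 had 2.327, and ATRA plus VPA 6 h replicate 1 had 0.906 beside 0.188 and 0.063. In bulk RNA such as this, fewer cells of a type and less RNA per cell cannot be told apart.

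Markers of other cell states moved with the treatments as well. With ATRA at 24 h 4 of the 8 noradrenergic markers rose and 1 fell, and at 72 h 2 rose and 3 fell. With both agents 2 rose and 3 fell at 24 h, and 1 rose and 4 fell at 72 h. Their summed intensity at 72 h was 12300 to 12710 per array with ATRA against 15740 and 15850 with DMSO. At 24 h it was 15150 to 15850 against 14070 to 16830. With ATRA at 72 h the mean of GATA3 went from 4652 to 2067 and that of MYCN from 6414 to 4939. PHOX2A went the other way, from 1396 to 2117. Of 8 mesenchymal markers 3 rose with ATRA at 72 h and 0 fell. Their sum was 5764 to 6751 with ATRA and 10610 to 11170 with both agents, against 4911 and 4967. Within it the matrix protein FN1 went from a mean of 387.3 with DMSO to 2013 and 3940. VIM, the brightest of the list, went from 4229 to 3915 and 6685, and SNAI2 from 214.1 to 218.9 and 185.7. PRRX1, YAP1 and COL1A2 were dim, at 15.39, 15.97 and 24.03 with DMSO at 72 h. Of 5 epithelial markers 2 rose with ATRA at 24 h, and 3 rose with both agents at 24 and at 72 h. With ATRA at 24 h the sum was 463.6 to 646 against 155.5 to 207.4, and KRT19 went from 82.06 to 456. EPCAM, KRT8, KRT18 and CDH1 had means of 21.25 to 37.09 there, against 22.22 to 34.11 with DMSO. VPA alone raised 3 mesenchymal markers at 24 h and at 72 h, and it raised 2 epithelial markers at 24 h and lowered 1 at 72 h. Of all genes 9.69% and 4.51% rose with VPA at 24 and 72 h. The shares that rose were 12.5% and 10.7% with ATRA and 13.5% and 14.9% with both agents. In either direction 18.5% and 30.9% passed with ATRA and 21.2% and 31.5% with both agents. Of 5 haematopoietic markers 1 rose with ATRA at 72 h (PTPRC, with group means of 16.14 to 23.02 throughout) and of 3 Schwann and glial markers 0 passed against DMSO. The part of these shifts in the members' results was not tested.

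With ATRA the carrier CRABP2 and the hydroxylases CYP26A1 and CYP26B1 had the largest rises of the set, 8.46-fold to 16.9-fold at 24 h; DHRS3, STRA6 and ALDH1A3 rose 1.47-fold to 1.99-fold there, and LRAT and ALDH1A2 gave no call. At 6 h 1 of 8 members rose, 6 rose at 24 h and 5 rose at 72 h, and 0 fell at any time. Of all 11940 genes 1.62% passed in either direction at 6 h, 18.5% at 24 h and 30.9% at 72 h (limma, Benjamini-Hochberg adjusted p under 0.05), and 1.03%, 12.5% and 10.7% rose. The median log2 change of the 8 members was 0.10, 0.79 and 0.73 at the 3 times, beside -0.01, 0.03 and 0.00 over all genes. With VPA alone 1 member passed at each time, STRA6 at 6 h and CRABP2 at 24 and 72 h, against 11.2%, 12.2% and 6.67% of all genes; 4.69% fell at 6 h, and 9.69% and 4.51% rose at 24 and 72 h. With both agents 2, 5 and 5 members rose at 6, 24 and 72 h, against 11.6%, 21.2% and 31.5% of all genes in either direction and 6.73%, 13.5% and 14.9% that rose. The 9 comparisons share the DMSO arrays of their time. A log2 change is that of intensity plus 1, given with its standard error (SE).

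**Figure D1:**
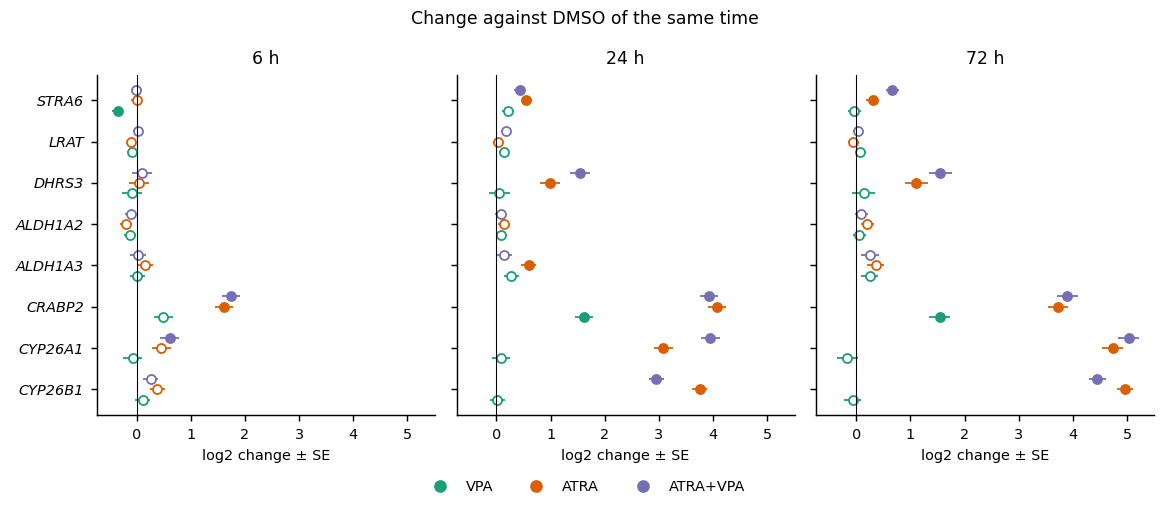
Log2 change ± SE of 8 retinoic acid genes against DMSO of the same time (x axis) at 6, 24 and 72 h, with VPA, ATRA or both; filled points passed an adjusted p of 0.05 and open points did not. CRABP2 stands at 1.62 with ATRA by 6 h and CYP26A1 and CYP26B1 reach 4.73 and 4.96 at 72 h, while LRAT and ALDH1A2 have no filled point.

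CRABP2, the carrier of retinoic acid, was the only member called with ATRA at 6 h and the only one that rose with VPA alone. It lies at chr1:156699606-156705784 (GRCh38.p14) and was above the lower quartile on all 35 arrays. At 6 h the DMSO arrays read 531, 466 and 430 and the ATRA arrays 1358, 1398 and 1635. The groups did not overlap, and CRABP2 rose 3.07-fold (1.62 ± 0.17, adjusted p = 1.7e-07). At 24 h DMSO read 161, 337 and 361 and ATRA 5083, 4249 and 4426. All 3 ATRA arrays stood above every DMSO array, and the rise was 16.9-fold (4.08 ± 0.17, adjusted p = 2.4e-17). The lowest DMSO value is that of replicate 1, the array that stands apart; without it the rise was 13.1-fold (3.71). At 72 h DMSO read 277 and 294 and ATRA 3473, 3942 and 3978, a rise of 13.2-fold (3.73 ± 0.19, adjusted p = 2.2e-15). The change of the ATRA effect from 6 to 24 h was 2.46 ± 0.24 (adjusted p = 2.5e-08; 2.09 without that array), and that from 24 to 72 h was -0.35 (0.34; 0.02 without that array), so a further change after 24 h was not called.

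VPA alone also raised CRABP2, with calls at 24 and 72 h. VPA arrays at 6 h read 708, 659 and 642, all above the 3 DMSO arrays, yet the log2 change of 0.50 ± 0.17 did not pass (adjusted p = 0.055); it passed under 6 of the alternatives tried, with adjusted p from 0.00069 to 0.046. At 24 h VPA read 957, 759 and 792, and CRABP2 rose 3.08-fold (1.62 ± 0.17, adjusted p = 6.5e-08). Without DMSO 24 h replicate 1 that rise was 2.38-fold (1.25, adjusted p = 3.5e-09). At 72 h VPA read 813, 788 and 901, a rise of 2.91-fold (1.54 ± 0.19, adjusted p = 1.4e-06). The VPA effect grew by 1.12 ± 0.24 from 6 to 24 h (adjusted p = 0.008, or 0.19 when only the arrays compared were fitted), and by 0.75 without DMSO 24 h replicate 1 (0.0039).

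In DMSO cultures CRABP2 itself fell over time and was the only member to change. From a mean of 475.6 ± 51.2 (SD, n = 3) at 6 h it went to 286.3 ± 109 (n = 3) at 24 h and 285.7 ± 12.3 (n = 2) at 72 h. The fall was 1.76-fold at 24 h (-0.81 ± 0.17, adjusted p = 0.002) and 1.66-fold at 72 h (-0.73 ± 0.19, adjusted p = 0.011), where 15.3% and 10.6% of all genes passed and 10.1% and 5.52% fell. Without DMSO 24 h replicate 1 the change at 24 h was -0.44. Once the control 3'/5' ratio entered the fit, neither fall passed (-0.55, adjusted p = 0.14, and -0.47, 0.25). The fall at 24 h was also lost when only the arrays compared were fitted (adjusted p = 0.19), and the fall at 72 h was also lost without DMSO 6 h replicate 1 (adjusted p = 0.057) or without either DMSO array of 72 h (0.13 and 0.065).

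**Figure D2:**
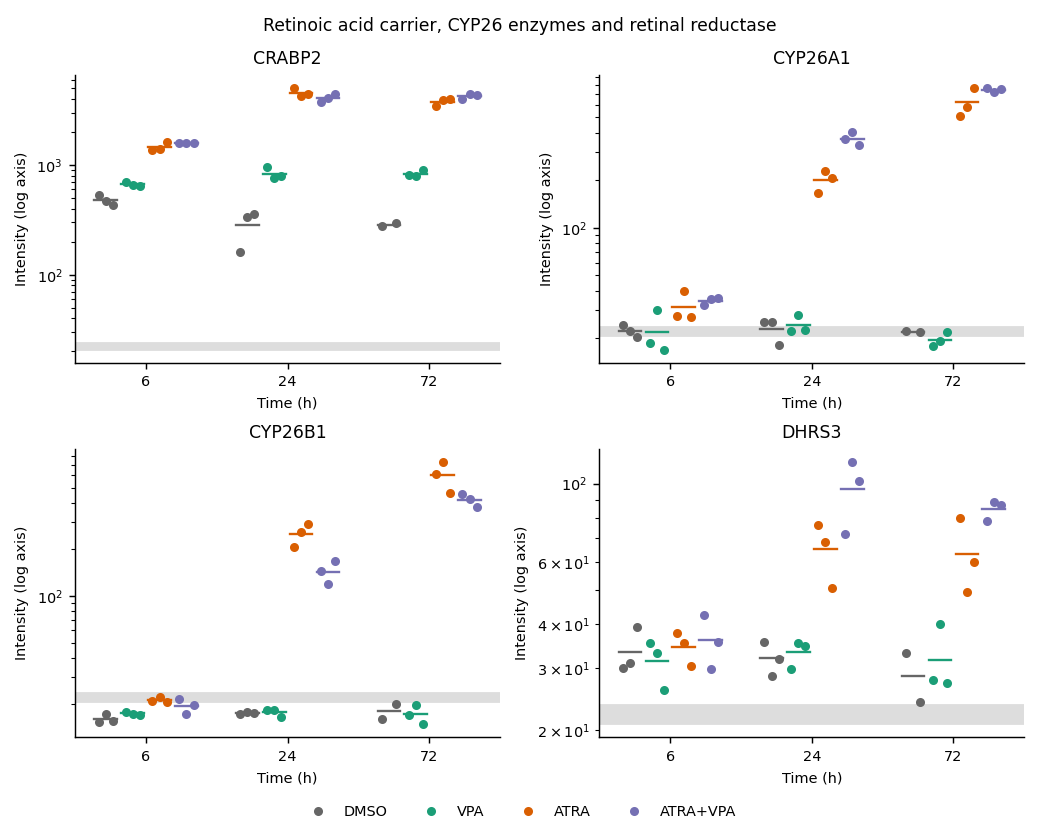
Intensity on each array (points, log axis) of CRABP2, CYP26A1, CYP26B1 and DHRS3 by time (h) and treatment; bars are group means and the grey band is the range of the arrays' lower quartiles, 20.8 to 23.6. ATRA arrays of CRABP2 already stand above DMSO at 6 h. CYP26A1 lies above the band with ATRA at 6 h (27.3 to 39.7) and reaches a mean of 201.3 at 24 h. CYP26B1 lies at 20.8 to 22.2 with ATRA at 6 h and at 206 to 292 at 24 h.

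CYP26A1, the hydroxylase that clears retinoic acid, went from a dim signal to a bright one with ATRA, and at 24 h was higher still with both agents. It lies at chr10:93073475-93077885. At 6 h the DMSO arrays read 24.4, 22.1 and 20.4 and the ATRA arrays 27.5, 39.7 and 27.3; no array overlapped, but the log2 change of 0.46 ± 0.17 did not pass (adjusted p = 0.32). At 24 h DMSO read 25.4, 25.4 and 18.1 and ATRA 166, 230 and 208. The rise was 8.46-fold (3.08 ± 0.17, adjusted p = 2.1e-14). At 72 h DMSO read 22.2 and 21.9 and ATRA 513, 579 and 771. The rise had reached 26.6-fold (4.73 ± 0.19, adjusted p = 1e-17). The ATRA effect grew from 6 to 24 h (2.62 ± 0.24, adjusted p = 9.7e-09, or 1.86 with a pseudocount of 32) and again from 24 to 72 h (1.65 ± 0.26, adjusted p = 0.00011). Since the DMSO level lies at the lower quartile, the fold depends on the pseudocount: with 32 in place of 1 the log2 changes were 2.08 at 24 h and 3.58 at 72 h.

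VPA alone gave CYP26A1 no call at any time. The VPA arrays read 18.5, 30.0 and 17.0 at 6 h, 22.3, 28.1 and 22.4 at 24 h and 17.8, 19.3 and 21.8 at 72 h. They overlapped DMSO at 6 and 24 h and lay below both DMSO arrays at 72 h, and the log2 changes were -0.07, 0.09 and -0.16. In order of group mean the 6 groups without ATRA were the lowest, from 19.63 to 24.29, and each overlapped the next. The 6 h groups with ATRA followed at 31.5 and 34.6, and all groups with ATRA at 24 and 72 h were at 201.3 or more.

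CYP26B1, the second CYP26 hydroxylase, went from below the lower quartile to a bright signal with ATRA. It lies at chr2:72129238-72147862. DMSO arrays at 24 h read 17.3, 17.8 and 17.7 and ATRA arrays 206, 258 and 292. The rise was 13.5-fold (3.75 ± 0.14, adjusted p = 1.3e-18). At 72 h DMSO read 16.0 and 20.2 and ATRA 612, 727 and 463, a rise of 31.2-fold (4.96 ± 0.15, adjusted p = 2.2e-20). With a pseudocount of 32 these log2 changes were 2.51 and 3.64. At 6 h DMSO read 15.4, 17.3 and 15.7 and ATRA 20.9, 22.2 and 20.8. The groups did not overlap, but the difference of 0.38 ± 0.14 did not pass (adjusted p = 0.27, or 0.029 when only the arrays compared were fitted). The ATRA effect grew by 3.37 ± 0.19 from 6 to 24 h and by 1.21 ± 0.21 from 24 to 72 h (adjusted p = 1.3e-12 and 0.00031), or by 2.36 and 1.13 with a pseudocount of 32. With VPA alone its log2 changes were 0.11, 0.02 and -0.06, and none passed.

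DHRS3, which reduces retinal to retinol, rose with ATRA at 24 and 72 h. It lies at chr1:12567910-12618210. DMSO arrays at 24 h read 35.5, 28.6 and 31.8 and ATRA arrays 76.4, 68.4 and 50.6. All ATRA arrays were higher, and the rise was 1.99-fold (0.99 ± 0.19, adjusted p = 0.00024). At 72 h DMSO read 33.1 and 24.0 and ATRA 79.9, 49.4 and 60.0, a rise of 2.15-fold (1.11 ± 0.21, adjusted p = 0.00013). With a pseudocount of 32 the changes were 0.60 and 0.64. At 6 h the ATRA arrays at 37.7, 35.2 and 30.4 overlapped the DMSO arrays at 29.9, 30.9 and 39.2. The growth of the ATRA effect from 6 to 24 h, 0.94 ± 0.26, passed (adjusted p = 0.028) but was lost on leaving out any 1 of 5 arrays: DMSO 6 h replicate 3, ATRA 6 h replicate 3, DMSO 24 h replicate 2, or ATRA 24 h replicate 1 or 2 (adjusted p from 0.063 to 0.095). VPA alone gave group means of 31.5, 33.2 and 31.6 against 33.4, 31.9 and 28.6 with DMSO and no call.

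STRA6, the retinol transporter, was bright in every group and rose with ATRA at 24 and 72 h. It lies at chr15:74179466-74212259. At 24 h DMSO arrays read 492, 535 and 552 and ATRA arrays 748, 792 and 776. The groups were well apart, and the rise was 1.47-fold (0.55 ± 0.11, adjusted p = 0.00025). At 72 h DMSO read 502 and 504 and ATRA 617, 629 and 616. These did not overlap either, and the 1.23-fold rise (0.30 ± 0.12) passed narrowly (adjusted p = 0.049). That call was lost on leaving out any 1 of the 5 arrays compared (adjusted p from 0.073 to 0.17) and once the control 3'/5' ratio entered the fit (0.17, adjusted p = 0.39). It was also lost with the replicate number as a block (0.31, adjusted p = 0.055), with each probe set tested on its own (0.057) and with only the arrays compared (0.059). At 6 h VPA arrays read 330, 361 and 490 against 519, 498 and 467, and STRA6 fell 1.27-fold (-0.35 ± 0.11, adjusted p = 0.028). VPA replicate 3 lay inside the DMSO range, and the call was lost when replicate 1 or 2 of either group was dropped (adjusted p from 0.08 to 0.24).

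LRAT (chr4:154740838-154753120), which esterifies retinol, was below the lower quartile on all 35 arrays, at 13.42 to 18.46, and passed in 0 of the 26 comparisons. At that level these arrays do not show whether it was expressed. With both agents against DMSO at 24 h LRAT passed with array weights (0.31, adjusted p = 0.0013) and without DMSO 24 h replicate 3 (0.28, 0.02). Against ATRA alone at 24 h the combination passed with array weights (0.22, 0.039).

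The retinal dehydrogenases, which make retinoic acid, gave 1 call with ATRA. ALDH1A3 (chr15:100879831-100916626) read 36.1, 36.6 and 51.2 with DMSO and 61.8, 64.5 and 59.9 with ATRA at 24 h. The ATRA arrays were the higher ones, and ALDH1A3 rose 1.51-fold (0.59 ± 0.14, adjusted p = 0.0029). With the mean of both probe sets the change was 0.21 (adjusted p = 0.13); the second probe set lay at 11.38 to 22.37, with 1 array above its lower quartile, and had a change of -0.18 (0.36). At 72 h the change was 0.36 and did not pass (adjusted p = 0.09). ALDH1A2 (chr15:57953429-58065711) ran from 18.78 to 32.16, with 14 of 35 arrays above their lower quartile, and its second probe set from 13.66 to 20.14. It passed in 0 of the 26 comparisons. Its highest array was 1 of the 3 with ATRA at 72 h, which read 32.2, 19.8 and 23.1 and so overlapped the DMSO range. Without ATRA 72 h replicate 2, the array at 19.8, the ALDH1A2 change with ATRA at 72 h passed (0.35, adjusted p = 0.022).

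**Figure D3:**
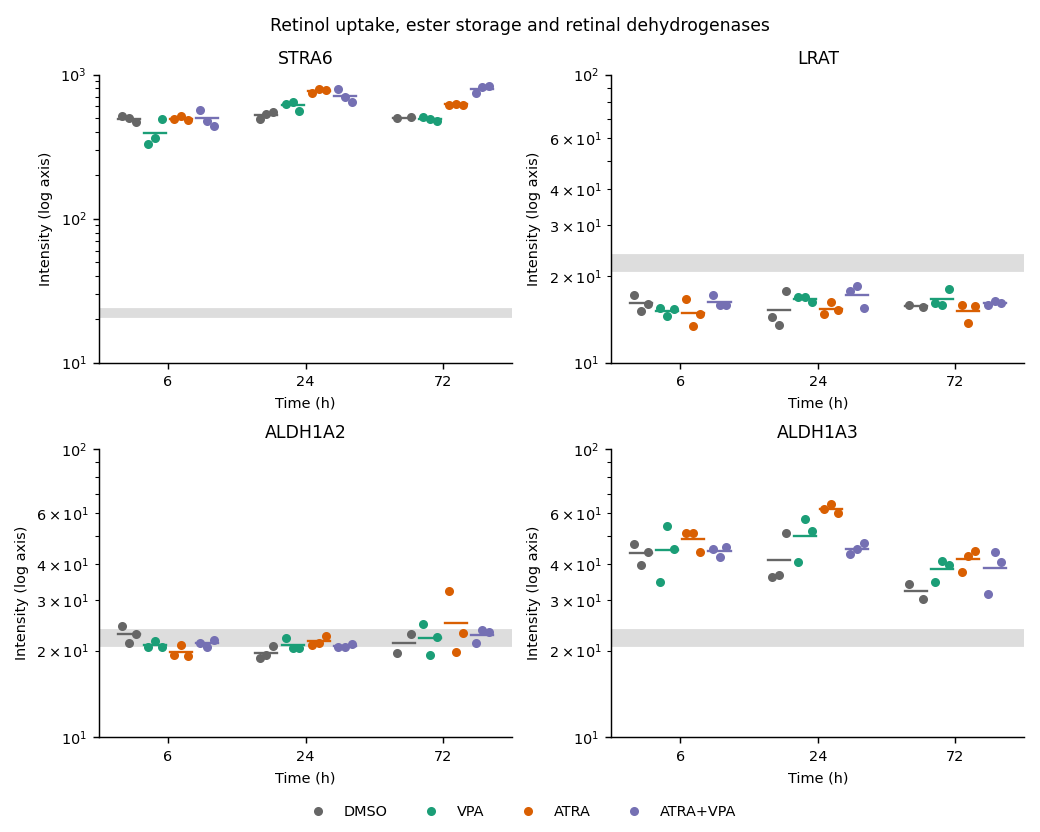
Intensity on each array (points, log axis) of STRA6, LRAT, ALDH1A2 and ALDH1A3 by time (h) and treatment; bars are group means and the grey band is the range of the arrays' lower quartiles. STRA6 stays far above the band, with ATRA arrays at 748, 792 and 776 at 24 h beside 492 to 552 with DMSO. Arrays with both agents reach 795 at 24 h and 828 at 72 h. ALDH1A3 lies at 30.2 to 64.5, and LRAT lies below the band throughout.

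Adding VPA to ATRA was compared with ATRA alone, and the CYP26 genes then moved in opposite directions. At 24 h 1 member was higher and 2 were lower with both agents than with ATRA, where 9.48% of all genes passed, 4.86% higher and 4.62% lower. CYP26A1 read 363, 402 and 332 with both agents, above the 166, 230 and 208 with ATRA. It was 1.82-fold higher (0.87 ± 0.17, adjusted p = 0.00092). CYP26B1 read 144, 120 and 167 with both agents, below the 206, 258 and 292 with ATRA, and was 1.75-fold lower (-0.80 ± 0.14, adjusted p = 0.00015). No array of either gene overlapped between these groups. ALDH1A3 read 43.4, 45.0 and 47.2 with both agents against 61.8, 64.5 and 59.9, and was 1.37-fold lower (-0.45 ± 0.14, adjusted p = 0.043). That call was lost on leaving out any 1 of the 6 arrays compared (adjusted p from 0.065 to 0.12). DHRS3 read 72.2, 115 and 102 against 76.4, 68.4 and 50.6; these overlap, and the 0.55 ± 0.19 did not pass (adjusted p = 0.06). It passed under 4 alternatives and without ATRA 24 h replicate 1 (0.046) or ATRA plus VPA 24 h replicate 1 (0.017).

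At 72 h 1 member was higher and 1 lower with both agents, where 20.8% of all genes passed, 14.6% higher and 6.22% lower. CYP26B1 read 451, 420 and 373 against 612, 727 and 463 with ATRA, and was 1.43-fold lower (-0.51 ± 0.14, adjusted p = 0.0077). The closest arrays were 451 and 463, and the call was lost without ATRA 72 h replicate 2 (-0.36, adjusted p = 0.08) or ATRA plus VPA 72 h replicate 3 (-0.44, 0.055). CYP26A1 read 763, 726 and 759 against 513, 579 and 771. The highest ATRA array was above all of these, and the difference of 0.29 ± 0.17 (95% interval -0.06 to 0.65) did not pass (adjusted p = 0.24). STRA6 read 746, 824 and 828 against 617, 629 and 616, with no overlap, and was 1.29-fold higher (0.36 ± 0.11, adjusted p = 0.013); without ATRA plus VPA 72 h replicate 3 the adjusted p was 0.059, and with a second quantile normalization the difference was 0.24 (0.1).

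CRABP2 gave no call between both agents and ATRA alone. With both it read 1577, 1592 and 1601 at 6 h, 3757, 4093 and 4492 at 24 h and 4025, 4457 and 4319 at 72 h. The differences from ATRA were 0.12, -0.16 and 0.17, with 95% intervals from -0.22 to 0.47, -0.50 to 0.19 and -0.18 to 0.52. At 6 h 0 of 8 members differed from ATRA, where 12% of all genes passed; the CYP26A1 arrays with both agents read 32.4, 35.2 and 36.2 and those of CYP26B1 21.8, 17.3 and 19.7, inside or across the ATRA range.

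Against DMSO, both agents together gave CYP26A1 its only 6 h call. The rise was 1.53-fold (0.61 ± 0.17, adjusted p = 0.016), and it was lost with a pseudocount of 32 (0.29, adjusted p = 0.088) and without DMSO 6 h replicate 3 (0.078), ATRA plus VPA 6 h replicate 2 (0.054) or replicate 3 (0.061). At 24 and 72 h CYP26A1 rose 15.4-fold and 32.6-fold (3.95 and 5.03, or 2.85 and 3.85 with a pseudocount of 32), and CYP26B1 rose 7.72-fold and 21.8-fold (2.95 and 4.45, or 1.82 and 3.15). CRABP2 rose 3.35-fold at 6 h, 15.2-fold at 24 h (11.7-fold without DMSO 24 h replicate 1) and 14.9-fold at 72 h. DHRS3 rose 2.91-fold and 2.93-fold (1.99-fold and 1.93-fold with a pseudocount of 32) and STRA6 1.35-fold and 1.59-fold at 24 and 72 h. The largest adjusted p among these at 24 and 72 h was that of STRA6 at 24 h, 0.0033.

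Against VPA alone, both agents together gave 1 higher member at 6 h, 4 at 24 h and 5 at 72 h and 0 lower, where 0.57%, 11.9% and 25.7% of all genes passed and 0.452%, 5.13% and 12.3% were higher. The 6 h call was CRABP2 at 2.37-fold (1.25, adjusted p = 2.7e-05), and CRABP2 was 4.93-fold and 5.12-fold higher at 24 and 72 h. CYP26A1 (3.86 and 5.19 on the log2 scale, or 2.82 and 3.92 with a pseudocount of 32), CYP26B1 (2.93 and 4.51, or 1.81 and 3.18) and DHRS3 (1.49 and 1.41) were higher at both of these times, and STRA6 at 72 h (0.70). Over the alternatives other than left-out arrays the lowest DHRS3 values were 0.96 and 0.88. CYP26A1 at 6 h had a difference of 0.68 that did not pass (adjusted p = 0.069) but passed with the replicate number as a block (0.039) and without VPA 6 h replicate 2 (0.0025).

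The interaction asks whether the change with both agents equals the sum of both single changes on the log2 scale. CRABP2 fell short of that sum at 24 h by 1.78 ± 0.24 (adjusted p = 4.1e-05) and at 72 h by 1.37 ± 0.25 (adjusted p = 0.0018), where 0.745% and 1.96% of all genes passed, 0.67% and 0.62% with a negative sign. The single changes at 24 h were 4.08 with ATRA and 1.62 with VPA, and the change with both was 3.92. Without DMSO 24 h replicate 1 the 24 h interaction was -1.41, and with only the arrays compared its adjusted p was 0.079. CYP26B1 fell short by 0.82 ± 0.19 at 24 h (adjusted p = 0.036), which no longer passed when any 1 of 8 of the 12 arrays compared was dropped (DMSO replicate 1 or 2, VPA replicate 1 or 2, ATRA replicate 2 or 3, ATRA plus VPA replicate 1 or 2; adjusted p from 0.051 to 0.15). CYP26A1 had an interaction of the other sign, 0.78 ± 0.24, that did not pass (adjusted p = 0.17) but passed with a pseudocount of 32 (0.014), with array weights (0.0086) and without DMSO 24 h replicate 3 (0.043). Both CYP26 genes were dim with DMSO and with VPA at 24 h (CYP26B1 at 16.6 to 18.6, CYP26A1 at 18.1 to 28.1). A fall with VPA could hardly show at that level, so these 24 h interactions largely repeat the differences from ATRA alone, -0.80 and 0.87. ALDH1A3 had an interaction of -0.72 (0.094) at 24 h, which passed when DMSO 24 h replicate 3 (0.014) or VPA 24 h replicate 1 (0.04) was dropped. At 6 h 0 of 8 members and 0% of all genes passed; no member other than CRABP2 passed at 72 h.

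**Figure D4:**
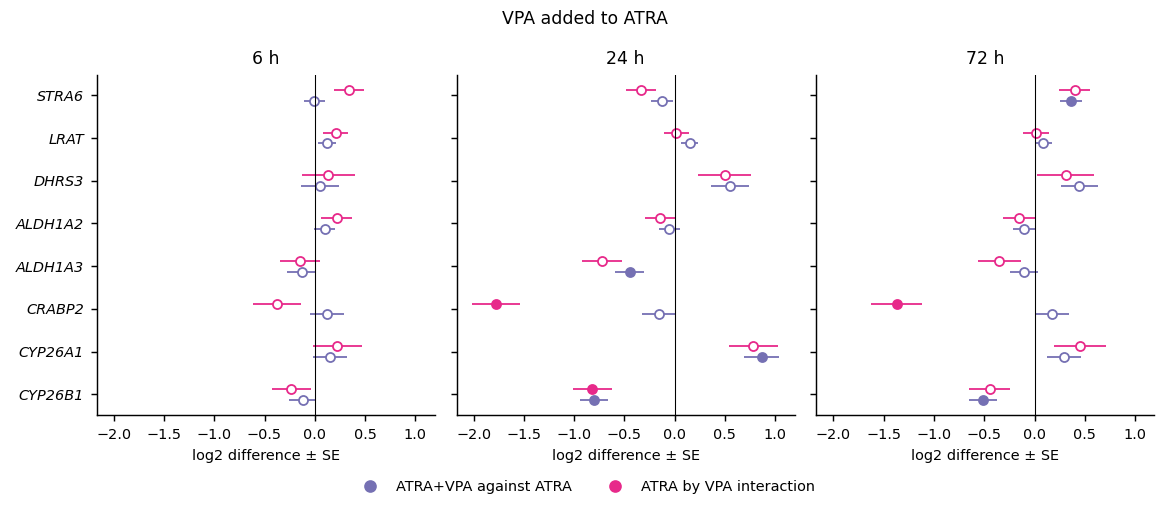
Log2 difference ± SE of 8 genes (x axis) between ATRA plus VPA and ATRA alone, and the ATRA by VPA interaction, at 6, 24 and 72 h; filled points passed an adjusted p of 0.05. At 24 h CYP26A1 lies at 0.87 and CYP26B1 at -0.80 for the difference from ATRA, and the CRABP2 interaction lies at -1.78 at 24 h and -1.37 at 72 h while its difference from ATRA stays near 0.

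The change of each treatment effect between times was tested directly. From 6 to 24 h the ATRA effect grew for 5 of 8 members (CYP26A1, CYP26B1, CRABP2, DHRS3 and STRA6), where 6.11% of all genes passed and 4.61% upward. The effect of both agents grew for 4 (the same without STRA6), where 6.06% passed and 3.89% upward, and the VPA effect for CRABP2 and STRA6, where 2.37% passed and 1.91% upward. From 24 to 72 h the ATRA effect grew for CYP26A1 and CYP26B1 alone among the members, where 19.1% of all genes passed and 3.9% upward. The effect of both agents also grew for these 2, by 1.08 ± 0.26 for CYP26A1 (adjusted p = 0.0082) and 1.50 ± 0.21 for CYP26B1 (adjusted p = 1.4e-05), where 7.33% passed and 2.98% upward. The VPA effect changed for 0 of 8 members, where 0.544% of all genes passed.

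Other genes of retinoid handling, from lists chosen by function with earlier results of these data known, are given by their counts. For reading these counts, 10.7% of all genes rose and 20.2% fell with ATRA at 72 h, and 14.9% rose and 16.6% fell with both agents at 72 h. For ATRA at 24 h, 12.5% of all genes rose and 18.5% passed in either direction. Among 6 measured genes of 11 listed for retinol binding and uptake, 0 rose and 1 fell with ATRA at 24 h and at 72 h; it was FABP5, a fatty acid carrier that also binds retinoic acid, 1.24-fold and 1.47-fold lower, and with both agents at 72 h 1.94-fold lower (adjusted p = 6.1e-11; RBP4 was 1.22-fold higher there). Among 17 of 23 oxidoreductases, 4 rose and 0 fell with both agents at 72 h: the aldo-keto reductase AKR1C3 (2.12-fold), DHRS7 (1.76-fold), RETSAT, which saturates retinol (1.54-fold), and ADH5. With VPA alone 3 rose at 24 h and 2 at 72 h, where 9.69% and 4.51% of all genes rose. Means at 72 h with DMSO, VPA, ATRA and both agents were 1042, 1757, 1548 and 2211 for AKR1C3. They were 899.9, 1406, 809 and 1581 for DHRS7, 130.2, 151.6, 132.9 and 202.4 for RETSAT and 1505, 1461, 1410 and 1790 for ADH5. With ATRA at 72 h 1 rose (AKR1C3, 1.49-fold) and 1 fell (RDH14, 1.23-fold). Among 9 of 11 genes for retinal dehydrogenases and retinoic acid oxidation, 1 rose with both agents at 72 h, the monooxygenase CYP1A1, from a mean of 29.8 with DMSO to 114 (3.72-fold, adjusted p = 4e-11). With ATRA alone at 72 h 1 rose, the fatty acid hydroxylase CYP4A11 (1.29-fold, adjusted p = 0.029). Its mean went from 40.45 with DMSO to 52.5 with ATRA, and was 36.74 with both agents. The lower quartiles of the ATRA 72 h arrays were 23.6, 23.1 and 22.9, beside 22 and 21.8 with DMSO. The part of that shift in the changes of dim genes was not tested. The CYP1A1 change with ATRA alone at 72 h was 1.27-fold and did not pass (adjusted p = 0.09). Among 10 of 14 genes for ester storage and hydrolysis, the esterase CES2 rose 1.54-fold and the lipoprotein receptor SCARB1 fell 1.93-fold with ATRA at 72 h, and the other 8 did not pass.

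Among 8 of 9 nuclear receptors, 3 rose and 2 fell with ATRA at 72 h, where 30.9% of all genes passed. The retinoic acid receptor RARA rose with ATRA at all 3 times (1.57-fold, 1.61-fold and 1.37-fold) and fell with VPA 1.53-fold at 6 h and 1.58-fold at 72 h. RARB, also a retinoic acid receptor, rose 1.75-fold with ATRA and 3.61-fold with both agents at 72 h, from a dim mean of 18.5 to 33.1 and 69.3. RXRA, the partner of these receptors, fell 1.70-fold and 1.56-fold with ATRA at 24 and 72 h. PPARD, a receptor of fatty acids, rose 1.66-fold and 1.55-fold at these times, and the orphan receptor NR2F1 fell 1.48-fold at 72 h. The median log2 change with ATRA at 72 h was 0.03 over the binding list, 0.05 over the oxidoreductases, 0.24 over the oxidation list, 0.07 over the storage list and 0.06 over the receptors, beside 0.73 over the 8 members and 0.00 over all genes. In the same order the medians with both agents at 72 h were -0.05, 0.01, -0.12, 0.02 and 0.10, beside 1.11 and -0.01.

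Over the 12 group means on the log2 scale, the genes outside the set whose pattern was most like that of CYP26A1 were HEBP2 (Pearson r = 0.986), HOXD4 (0.978) and ATP7A (0.977). For CYP26B1 they were COL13A1 (0.992), PLK2 (0.984) and ATP7A (0.972). For CRABP2 they were SUOX (0.975), ARHGEF40 (0.973) and FZD7 (0.973), and for DHRS3 PTGIR (0.975), ACTC1 (0.966) and IGFBP6 (0.965). CYP26A1 and CYP26B1 correlated at 0.979 with each other, and CYP26A1 with DHRS3 at 0.953, with CRABP2 at 0.867 and with STRA6 at 0.819. All these values describe the same 12 groups and the same arrays.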

How the data were processed

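RNA of BE(2)-C cultures was read on 35 Affymetrix human arrays of an early access design; its labelling began with an oligo-dT primer. The authors summarised and normalized the deposited intensity values with RMA, per the submitters' processing notes; the software version and the background step are not given in the sources used here. Of 22930 probe sets, 19359 with exactly 1 gene symbol were used, and the 125 with several symbols, 3292 with none and 154 controls were left out. The brightest probe set by mean over all arrays stood for a gene, which gave 11940 genes; a gene identifier matched for 11874 symbols, of which 0 had changed. The log2 of intensity plus 1 was fitted on 12 group means with limma 3.58.1 in R 4.3.3 (lmFit, eBayes, 23 residual and 5.5 prior degrees of freedom), and p-values of each of 26 contrasts were adjusted by Benjamini-Hochberg over all genes, with a threshold of 0.05. The procedure was tested on simulated data. A fold is the ratio of intensity plus 1, and the number of arrays limits its precision.

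The members and lists were chosen with earlier results of these data known. Named are all members, up to 3 genes of each pathway list with the largest absolute log2 change among those past 0.05 against DMSO (in the comparisons the text describes), and, for members that changed at least 2-fold, the 3 genes most correlated over group means; ADH5 and NR2F1 fall outside that rule and were named after their values were seen, to complete counts; marker genes were also chosen so. Marker lists served to check the cell line. RefSeq promoter windows were searched for the hexamers on both strands. Alternatives were a pseudocount of 32, leaving out the lowest 33.3% of genes, the mean of all probe sets, a second quantile normalization, an intensity trend, array weights, the replicate number as a block, the control 3'/5' ratio in the fit, a fit on probe sets, a fit of only the arrays compared, and leaving out each array.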

Additional observations from a re-analysis of the deposited data

Results flagged for a closer look

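The following differences were picked out because the effect of a treatment differed between times or in the presence of the other agent, by limma's test of the difference itself over all genes. Values are log2 differences. The ATRA by VPA interaction was -0.82 for CYP26B1 and -1.78 for CRABP2 at 24 h and -1.37 for CRABP2 at 72 h. CYP26B1 was dim with DMSO and with VPA at 24 h, so a fall with VPA could hardly show.

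From 6 to 24 h the ATRA effect grew by 2.62 for CYP26A1, 3.37 for CYP26B1, 2.46 for CRABP2, 0.94 for DHRS3 and 0.55 for STRA6; the STRA6 difference (adjusted p = 0.02) was lost without DMSO 6 h replicate 1, ATRA 6 h replicate 3 or DMSO 24 h replicate 1 (0.052 to 0.057). With a pseudocount of 32 the first values were 1.86 for CYP26A1 and 2.36 for CYP26B1, and without DMSO 24 h replicate 1 that of CRABP2 was 2.09. The effect of both agents grew over the same span by 3.34 for CYP26A1, 2.69 for CYP26B1, 2.18 for CRABP2 and 1.44 for DHRS3. With a pseudocount of 32 these were 2.56 for CYP26A1, 1.72 for CYP26B1 and 0.94 for DHRS3, and the CRABP2 value was 1.81 without DMSO 24 h replicate 1. The VPA effect grew by 1.12 for CRABP2 and by 0.56 for STRA6. The STRA6 value (adjusted p = 0.037) combines a fall at 6 h with a log2 change of 0.21 at 24 h that did not pass, and was lost without any 1 of 8 arrays (replicates 1 and 2 of DMSO and of VPA at 6 and 24 h; 0.053 to 0.14).

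From 24 to 72 h 2 members passed, both CYP26 genes. The ATRA effect grew by 1.65 for CYP26A1 and 1.21 for CYP26B1, and that of both agents by 1.08 and 1.50. The 3'/5' ratio also moved over this span, from 0.887 to 1.823 with ATRA and from 1.052 to 1.06 with DMSO. With it in the fit the ATRA changes at 72 h were 4.63 for CYP26A1 and 4.90 for CYP26B1, beside 4.73 and 4.96. Those at 24 h were 3.10 and 3.76, beside 3.08 and 3.75. Over all alternatives other than left-out arrays, the lowest growth of the ATRA effect was 1.50 for CYP26A1 and 1.13 for CYP26B1.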

How the results depend on the processing

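Of 208 member results (8 genes in 26 comparisons), 62 passed, 46 of them under every alternative and with every array left out, and 0 of the 62 changed direction. Of the 146 others, 14 passed under at least 1 alternative. The 3 interactions became 5 with array weights, 1 with only the arrays compared and 2 to 5 on leaving out 1 array. The 2 changes of DMSO over time became 0 once the control 3'/5' ratio entered the fit and 1 to 2 on leaving out 1 array. On leaving out 1 array the 27 calls against DMSO became 25 to 29, the 15 of the combination against single agents 13 to 17 and the 15 changes of effect with time 13 to 16. Fitting only the arrays compared lost the most calls, 10 of 62, among them STRA6 with both agents at 24 h (adjusted p = 0.079), ALDH1A3 with ATRA at 24 h (0.061) and CYP26B1 between both agents and ATRA at 72 h (0.062). The CYP26B1 interaction at 24 h was lost in 4 settings besides left-out arrays (adjusted p from 0.052 to 0.24), and the ALDH1A3 difference from ATRA at 24 h with an intensity trend (0.05) or a fit on probe sets (0.055). Leaving out the lowest 33.3% of genes dropped LRAT and ALDH1A2. Dim genes had folds that depend on the pseudocount, and signal over background limits what can be said of them.

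The replicate numbers showed no pairing on average. Over 187 pairs of arrays with the same number in different groups the mean correlation of deviations was 0. The lowest was -0.332, and 39 pairs were over 0.1. These pairs join groups of all times, so a pairing within a time was not tested by this mean. With the replicate number as a block the 5 counts were 26, 16, 3, 15 and 2 in place of 27, 15, 3, 15 and 2.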
